A study of Mus musculus with 11 samples.

Results

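The 31 genes described here encode proteins of DNA replication and S phase, and they were taken by gene name from the deposited count table, where all 31 were found among 47131 genes. They cover origin licensing (8 genes), activation of the replicative helicase (3), polymerases with their clamp and clamp loader (7), Okazaki fragment maturation and base repair (3), nucleotide supply (4), chromatin and histone supply (3) and the switch from G1 to S phase (3). Poly(A)-selected RNA was sequenced from colorectal organoids, cell cultures of epithelium kept in Matrigel. They were made from the colons of C57BL/6J females 6 to 8 weeks old. NAP was given at 10 pM for 48 h in 6 libraries (NAP 1 to NAP 6), and 5 libraries served as controls (control 1 to control 5), which the labels describe once as not treated and once as given PBS, the vehicle. What NAP stands for is not spelled out in the labels, and every library carries batch label 1. The labels number the libraries as biological replicates but do not say whether these were separate mice or cultures, and the p-values below therefore rest on a spread between libraries that may partly be technical.

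Replication starts when the origin recognition complex, Cdc6 and Cdt1 load the MCM helicase onto DNA in G1 phase. Cyclin E with its kinase, and E2F transcription factors released from the retinoblastoma protein, then drive cells into S phase, where Cdc45 and the GINS complex turn the loaded MCM ring into a moving helicase. Many genes of this machinery are E2F targets and are transcribed in late G1 and S phase, so their summed RNA is widely used as a readout of cycling cells. In the colon epithelium such cells sit in the lower crypt, among stem cells and transit-amplifying cells, whereas absorptive colonocytes at the surface have left the cycle.

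Count totals ran from 16546263 to 21947414 per library. The colon epithelium markers Epcam, Cdx1, Cdx2, Cdh17, Krt8, Krt18, Krt19 and Lgals4 summed to 12220 to 15130 CPM in NAP libraries and to 10460 to 22050 CPM in controls (CPM, counts scaled to a common total after TMM correction of the library sizes). Some libraries stood apart from the rest in measures of the whole library. Genes with at least 1 count numbered 19828 to 22390 in NAP libraries, 21172 to 22108 in controls 1, 3 and 4, and 25725 to 27218 in controls 2 and 5. Mitochondrial transcripts took 5.17 to 8.08% of counts in NAP libraries, 2.74 to 3.40% in controls 1, 3 and 4, and 4.56 to 4.78% in controls 2 and 5, so the groups did not overlap in this measure. The part of these differences in the results below was not tested, other than by leaving libraries out.

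The comparison of NAP with control asked whether 48 h of NAP altered the RNA level of the replication genes. No member passed the threshold. In edgeR's quasi-likelihood test with Benjamini-Hochberg adjustment over 14840 genes, 0 of 31 members had an adjusted p below 0.05, against 2.12% of all tested genes, and the smallest adjusted p among them was 0.102, for Cdt1. The estimates leaned one way all the same: 29 of 31 members had a negative log2 fold change (NAP over control), against 55.3% of all tested genes. Their median log2 fold change was −0.79, against −0.07 over all tested genes, with a range from −1.26 for Ccne1 to 0.58 for Pcna. At an unadjusted p below 0.05, 5 members were lower in NAP libraries (Cdt1, Ccne1, Tk1, Rpa2 and Ung), which is 16.1% of the members, against 12.7% of all tested genes. Leaving out 1 library moved the number of members at this p, counted in either direction. Removing control 2 gave 13, against 3161 of 15096 tested genes. Control 5 gave 12 (3311 of 15119 genes) and NAP 3 gave 11 (3728 of 14646). Each of NAP 2, 4 and 5 gave 3 (2658 of 14669, 2730 of 14681 and 2614 of 14695). Control 1 or control 4 gave 1 (3194 of 15072 and 3612 of 15084). Not 1 of the 31 members had every NAP library below every control, a pattern seen in 2.57% of all tested genes. In bulk RNA of this kind, fewer cycling cells and less RNA per cell cannot be told apart.

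**Figure D1:**
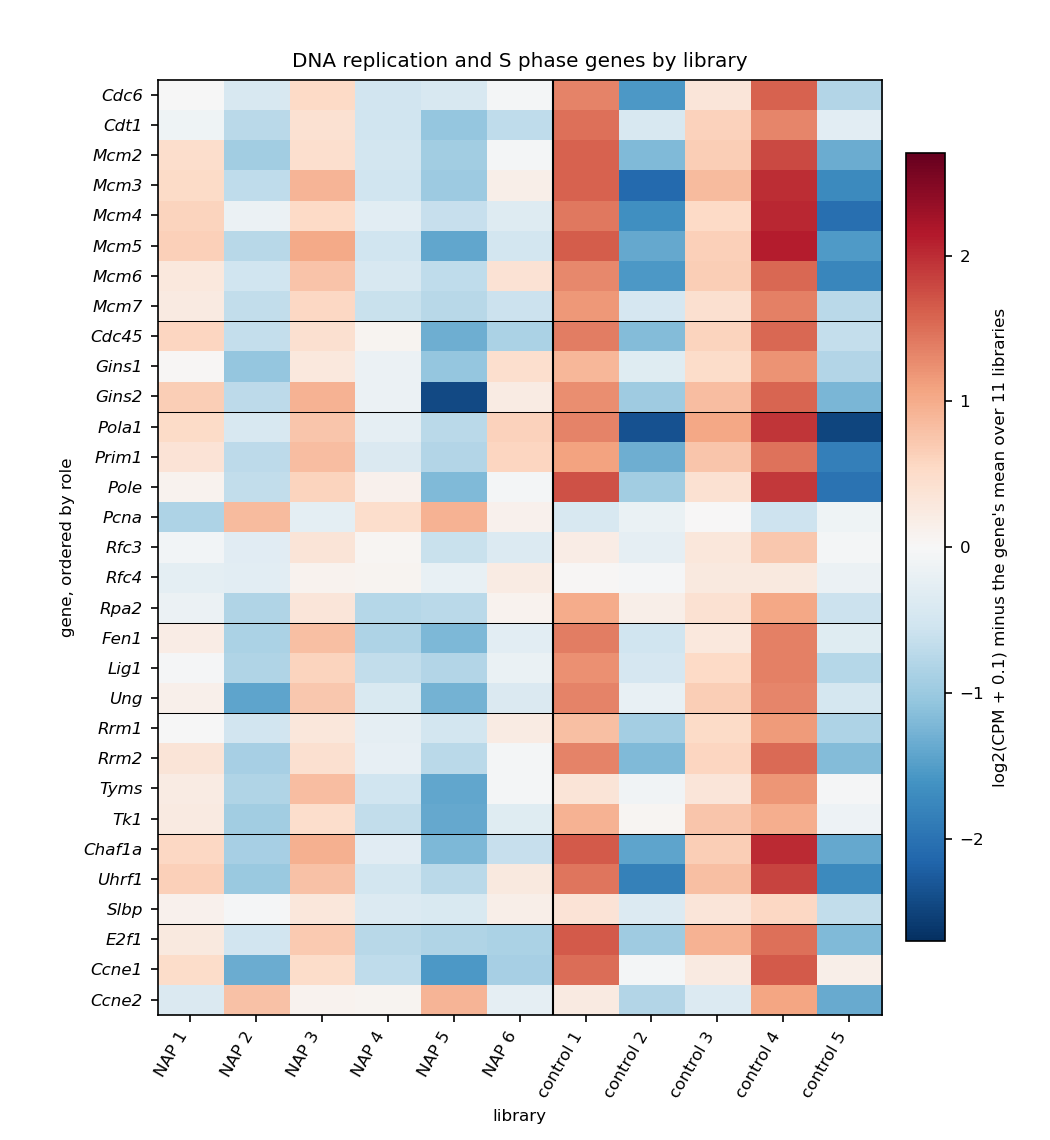
Levels of the 31 genes (rows, ordered by role, with thin lines between role groups) in the 6 NAP libraries and the 5 controls (columns). Colour gives log2(CPM + 0.1) minus the gene's mean over the 11 libraries. Controls 1 and 4 are red and controls 2 and 5 blue for most genes, all NAP libraries lie between these pairs for 12 genes, and Pcna runs the other way.

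In the heat map of the 31 genes the control libraries lie on both sides of the NAP libraries. Controls 1 and 4 were the 2 highest of all 11 libraries for 26 of 31 members, while controls 2 and 5 were the 2 lowest of the 5 controls for 30 members and the 2 lowest of all 11 for 13. For 12 members both held, so that all NAP libraries lay between the pairs. All 6 NAP libraries fell inside the control range for 16 members. Control 3 lay inside the NAP range for 18 members. The single highest library was control 4 for 26 members, control 1 for 4 and NAP 5 for 1, and the single lowest was NAP 5 for 10, control 5 for 10, control 2 for 6, NAP 2 for 4 and NAP 1 for 1. Within the NAP group there was an order too, with NAP 3 the highest of the 6 for 24 members and NAP 5 the lowest for 20. These counts were not made over all tested genes, so whether such orders are particular to the members was not tested.

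The members together took 0.0634 to 0.0993% of counts in NAP libraries. In controls they took 0.152% in control 1, 0.0418% in control 2, 0.101% in control 3, 0.187% in control 4 and 0.0405% in control 5. The NAP shares therefore lay inside the control range, above controls 2 and 5 and below controls 1, 3 and 4. Pcna, which ran the other way, weighed heavily in these sums. It made up 439.9 of the members' 722.5 CPM in NAP 5 and 413.8 of 732.6 CPM in NAP 2. In control 2 it made up 203.1 of 491.4 CPM and in control 4 157.2 of 1510 CPM. The share of the members without Pcna was not computed, and the order did not hold in full for groups that lack it. The 8 origin licensing genes summed to 295.9 CPM in NAP 3, above the 282.8 CPM of control 3. The other NAP libraries lay below control 3 in this sum.

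The direction of the estimates depended on which controls were set against NAP. With controls 2 and 5 left out, the libraries with the most detected genes, the median log2 fold change over the members was −1.27 and 30 were negative. In that fit 11 members passed edgeR's quasi-likelihood test at an adjusted p below 0.05, against 5.32% of all tested genes, and all 11 were lower in NAP libraries: Cdc6, Cdt1, Mcm2, Mcm3, Mcm4, Mcm7, Pole, Lig1, Rrm1, Rrm2 and E2f1. With controls 1 and 4 left out instead, the median was 0.19, 13 members were negative and 0 passed, against 8.28% of all tested genes. These 4 controls were picked with their values for these genes known, so neither fit is evidence on its own for either direction. On all 11 libraries DESeq2 called 1 member, with an adjusted p of 0.0423 for the log2 fold change of Cdt1, and it called 11.3% of all tested genes.

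Since the members varied together across libraries, their promoters were searched for the letters of E2F sites, E2F factors being the textbook activators of this gene set. Promoters came from RefSeq (GRCm38.p6, a build other than the GRCm39 of the counts) and ran from 250 bases before to 50 bases from the transcription start, with 26 of the 31 members in the table; Mcm4, Gins1, Gins2, Pole and Ccne2 had no entry. The letters searched, on both strands, were TTTCCCGC, TTTGGCGC, TTTGCCGC and TTTCGCGC. They occurred in 10 of 26 members (38.5%; Cdt1, Lig1, Mcm7, Rfc3, Mcm5, Cdc6, Mcm3, Uhrf1, Mcm6 and Pola1), against 2.61% of the 27025 genes with a promoter in the table. Lig1, Mcm7, Fen1 and Uhrf1 had more than 1 promoter each. Counted by promoter, 10 of 31 (32.3%) held a match, against 2.265% of all promoters. The CCAAT box was found in 16 of 26 members (61.5%) and in 41.1% of all genes. Member promoters had a median GC content of 58.3%, against 52.7% over all promoters, and the matched letters are themselves rich in G and C. Matches began between base −185 and base 38, where base 0 is the first transcribed base. The 6 members with a match and the smallest unadjusted p are shown 5′ to 3′ on the gene's own strand, with the matched letters in capitals:
Cdt1, chr8:122567765-122568064, plus strand: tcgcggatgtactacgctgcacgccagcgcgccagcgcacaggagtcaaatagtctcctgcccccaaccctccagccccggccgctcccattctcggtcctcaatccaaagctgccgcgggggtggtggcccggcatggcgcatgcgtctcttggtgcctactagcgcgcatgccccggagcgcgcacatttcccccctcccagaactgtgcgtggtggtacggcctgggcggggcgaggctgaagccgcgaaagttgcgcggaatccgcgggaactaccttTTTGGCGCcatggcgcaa
Lig1, chr7:13278576-13278875, plus strand: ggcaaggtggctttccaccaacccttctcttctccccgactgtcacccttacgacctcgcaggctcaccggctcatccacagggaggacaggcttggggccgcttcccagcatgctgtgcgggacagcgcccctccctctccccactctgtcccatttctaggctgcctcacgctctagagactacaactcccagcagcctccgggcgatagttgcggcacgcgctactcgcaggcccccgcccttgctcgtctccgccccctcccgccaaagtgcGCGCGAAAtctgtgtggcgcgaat
Mcm7, chr5:138171834-138172133, minus strand: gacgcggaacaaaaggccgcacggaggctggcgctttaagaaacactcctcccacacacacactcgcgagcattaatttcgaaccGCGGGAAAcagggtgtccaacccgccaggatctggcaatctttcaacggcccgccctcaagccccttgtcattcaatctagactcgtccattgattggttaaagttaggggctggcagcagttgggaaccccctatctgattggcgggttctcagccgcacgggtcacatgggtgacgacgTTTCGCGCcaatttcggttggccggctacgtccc
Rfc3, chr5:151651159-151651458, minus strand: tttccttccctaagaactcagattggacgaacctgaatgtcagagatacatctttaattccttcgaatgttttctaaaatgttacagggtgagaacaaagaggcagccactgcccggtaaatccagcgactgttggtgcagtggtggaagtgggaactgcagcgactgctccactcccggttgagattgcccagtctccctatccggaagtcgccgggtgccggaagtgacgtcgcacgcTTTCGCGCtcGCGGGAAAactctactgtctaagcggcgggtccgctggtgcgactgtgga
Mcm5, chr8:75109259-75109558, plus strand: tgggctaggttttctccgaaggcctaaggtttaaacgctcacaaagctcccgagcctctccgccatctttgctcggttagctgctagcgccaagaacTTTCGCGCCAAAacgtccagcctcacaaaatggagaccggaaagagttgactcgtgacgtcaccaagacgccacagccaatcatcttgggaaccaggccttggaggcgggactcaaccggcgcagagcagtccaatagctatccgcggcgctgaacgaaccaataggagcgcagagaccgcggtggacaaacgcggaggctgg
Cdc6, chr11:98907901-98908200, plus strand: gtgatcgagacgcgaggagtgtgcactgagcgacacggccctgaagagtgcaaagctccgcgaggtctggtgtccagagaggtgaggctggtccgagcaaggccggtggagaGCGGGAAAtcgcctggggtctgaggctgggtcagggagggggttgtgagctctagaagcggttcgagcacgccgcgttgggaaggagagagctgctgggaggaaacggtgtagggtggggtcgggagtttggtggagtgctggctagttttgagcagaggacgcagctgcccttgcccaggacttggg
In the promoters shown for Cdt1 and Lig1 the match lay after the start, at bases 32 and 26. The Mcm7 promoter shown held 1 match before and 1 after its start, at bases −165 and 16. No other promoter of Lig1 or Mcm7 held a match. Rfc3 held a pair that flanked the start, at bases −10 and 0. Both matches of Mcm5, at bases −153 and −149, overlap and read as 1 run of capitals on opposite strands. In Cdc6 the match began at base −138. A match is a description of the letters and says nothing of binding in these organoids.

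All 8 origin licensing genes had negative log2 fold changes, from −1.11 to −0.54, and 0 were called. Cdt1 (chr8:123294754-123299869, GRCm39), which brings the MCM ring to the origin, had 10.2 CPM in the lowest, 13.8 at the median and 28.5 in the highest NAP library, against 59.5, 15.7, 32.5, 52.8 and 17.5 CPM in controls 1 to 5. Controls 1, 3 and 4 lay above every NAP library, while controls 2 and 5 lay within the NAP range. The log2 fold change of Cdt1 was −1.11 ± 0.37 (SE; adjusted p = 0.102, edgeR's quasi-likelihood test). Mcm7, a subunit of the helicase ring, ran from 24.8 through a median of 27.6 to 61.0 CPM in NAP libraries, against 93.2, 30.2, 56.2, 107 and 25.2 CPM in controls. Its levels in controls 1 and 4 exceeded every NAP library and those of the other 3 controls did not, and its log2 fold change was −0.79 ± 0.39 (adjusted p = 0.236, edgeR). Part of Mcm7 overlaps Ap4m1 on the opposite strand by 393 bases, and no source used here gives the strand setting of the counting, so any reads from exons in the shared stretch cannot be assigned to 1 gene with certainty.

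The other 6 licensing genes were Cdc6, which loads the ring together with Cdt1, and the ring subunits Mcm2 to Mcm6. Mcm3 spanned 9.68 to 36.5 CPM in NAP libraries and 4.40 to 76.5 CPM in controls, a 17.4-fold range among controls. For Mcm4 the span was 12 to 28.1 CPM in NAP libraries and 4.44 to 76.6 CPM in controls. Cdc6, Mcm2, Mcm3, Mcm4, Mcm5 and Mcm6 each had all 6 NAP libraries inside the control range. Their adjusted p-values from edgeR ran from 0.293 for Mcm2 to 0.565 for Mcm6.

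**Figure D2:**
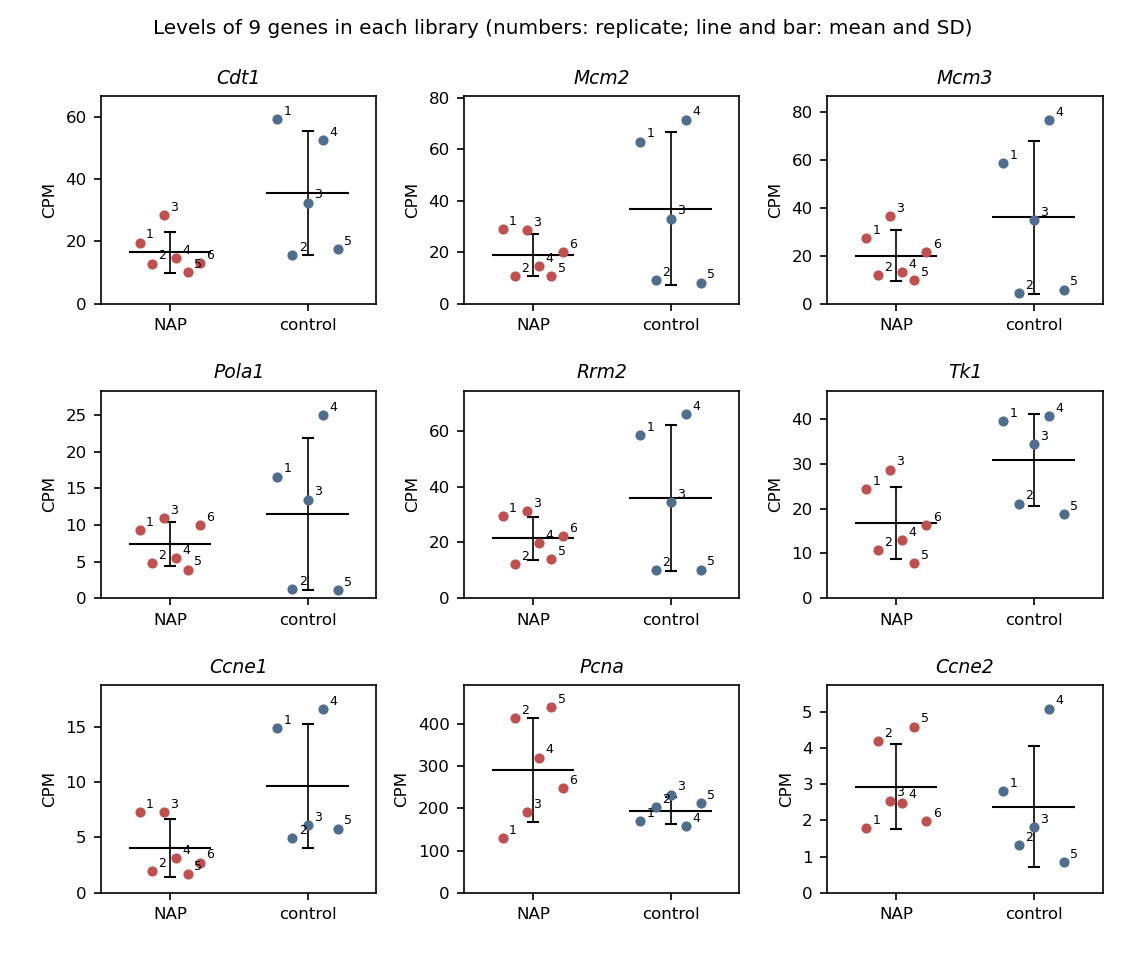
Levels of 9 genes in CPM (linear axis from 0) in each NAP library (red) and each control (blue). Digits give the replicate number, the horizontal line the group mean and the vertical bar 1 SD. For Mcm2, Mcm3, Pola1 and Rrm2 controls 1 and 4 lie above and controls 2 and 5 below the NAP libraries, while Pcna reaches 440 CPM in NAP 5, against 233 CPM in its highest control.

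Because the 6 MCM proteins form 1 ring, their levels were also compared with each other on the length-adjusted scale of the deposited FPKM values (fragments scaled for gene length and library size). Mcm7 had the highest FPKM of the 6 in 10 of 11 libraries, and Mcm6 in NAP 6. The highest subunit exceeded the lowest 1.82-fold to 3.35-fold in NAP libraries. Among controls that ratio was 1.94 in control 1, 6.00 in control 2, 2.17 in control 3, 1.45 in control 4 and 5.87 in control 5. The subunits were thus least even in controls 2 and 5, where Mcm7 stood at 8.48 and 7.04 FPKM and the other 5 subunits at 2.89 FPKM or less. The mean FPKM over the 6 subunits was 9.49, 4.64, 11.6, 5.05, 3.98 and 6.51 in NAP 1 to NAP 6, against 18.8, 3.18, 10.8, 24.0 and 2.80 in controls 1 to 5.

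Helicase activation was represented by Cdc45 and by the GINS subunits Gins1 and Gins2, which join the MCM ring to make the working helicase. All 3 were negative and none was called. Cdc45 had 1.76 CPM in the lowest, 3.81 at the median and 6.81 in the highest NAP library, against 11.9, 1.96, 6.92, 13.4 and 2.86 CPM in controls 1 to 5. Gins1 was sparse, with 1.07, 2.21 and 3.21 CPM as the lowest, median and highest NAP values, against 4.38, 1.82, 3.29, 5.50 and 1.29 CPM in controls, and in both genes controls 1, 3 and 4 stood above every NAP library while controls 2 and 5 did not. Log2 fold changes were −0.84 ± 0.51 for Cdc45 (adjusted p = 0.338, edgeR) and −0.64 ± 0.43 for Gins1 (adjusted p = 0.388, edgeR). Gins2 was the only member with an SD above 1 (log2 CPM) among NAP libraries, where it spanned 0.565 to 6.78 CPM, a 12-fold range that rests on 9 counts in NAP 5. Gins2 and Cdc45 overlap Gse1 and Ufd1 on the opposite strand.

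Polymerases, clamp and clamp loader held both the most variable and the least variable members. Pola1, the catalytic subunit of polymerase alpha that extends each RNA primer, had the largest control SD of the 31 genes, 2.13 on the log2 scale, which is at percentile 99.1 of all tested genes. It had 3.90 CPM in the lowest, 7.40 at the median and 10.9 in the highest NAP library, against 16.6, 1.19, 13.5, 25.1 and 1.07 CPM in controls, a 23.3-fold range. Behind the 2 lowest of these levels stood 17 counts in control 2 and 15 in control 5. Controls 1, 3 and 4 were above and controls 2 and 5 below all 6 NAP libraries, and the log2 fold change was −0.64 ± 0.67 (adjusted p = 0.591, edgeR). Rfc4, a clamp loader subunit, had the smallest control SD at 0.19 (percentile 10.2), with 8.62, 10.1 and 12.2 CPM as the lowest, median and highest NAP values, against 10.7, 10.3, 12.6, 12.7 and 9.45 CPM in controls. NAP 1, 2 and 5 lay below every control and controls 3 and 4 above every NAP library, within a narrow range (log2 fold change −0.13 ± 0.18, adjusted p = 0.685, edgeR). Rfc4 overlaps Eif4a2 on the opposite strand by 185 bases, and Eif4a2 had 118942 counts over the 11 libraries against 2173 for Rfc4, and how many reads of either fall in the overlap was not measured.

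Rpa2, a subunit of the protein that coats single-stranded DNA, had 6.29 CPM in the lowest, 8.21 at the median and 13.9 in the highest NAP library, against 22.4, 12.4, 14.7, 23.0 and 7.30 CPM in controls 1 to 5. NAP 2, 4 and 5 were below every control, controls 1, 3 and 4 were above every NAP library, and the log2 fold change was −0.80 ± 0.32 (adjusted p = 0.158, edgeR). Prim1, the primase subunit, and Pole, the catalytic subunit of the leading-strand polymerase, had control ranges of 10.3-fold and 15.7-fold, with all NAP libraries inside them. Rfc3, a second clamp loader subunit, spanned 6.72 to 13 CPM in NAP libraries and 8.66 to 17.1 CPM in controls.

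Pcna was the exception of the whole set. It encodes the sliding clamp that tethers polymerases to DNA (chr2:132091206-132095100, GRCm39), and it was 1 of 2 members with a positive log2 fold change and the only member with any NAP library above every control. Pcna had 129, 414, 192, 320.5, 440 and 249 CPM in NAP 1 to NAP 6, against 170, 203, 233, 157 and 212 CPM in controls 1 to 5. NAP 2, 4, 5 and 6 lay above every control and NAP 1 below every control. The mean was 291 ± 123 CPM in NAP libraries (SD, n = 6) and 195 ± 31.2 CPM in controls (SD, n = 5), and the log2 fold change of 0.58 ± 0.29 did not pass (adjusted p = 0.245, edgeR's quasi-likelihood test). Its control SD of 0.23 was the second smallest of the set, against 0.68 in NAP libraries. In every alternative run the log2 fold change of Pcna was positive, from 0.42 to 0.97, and in none of them was it called.

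**Figure D3:**
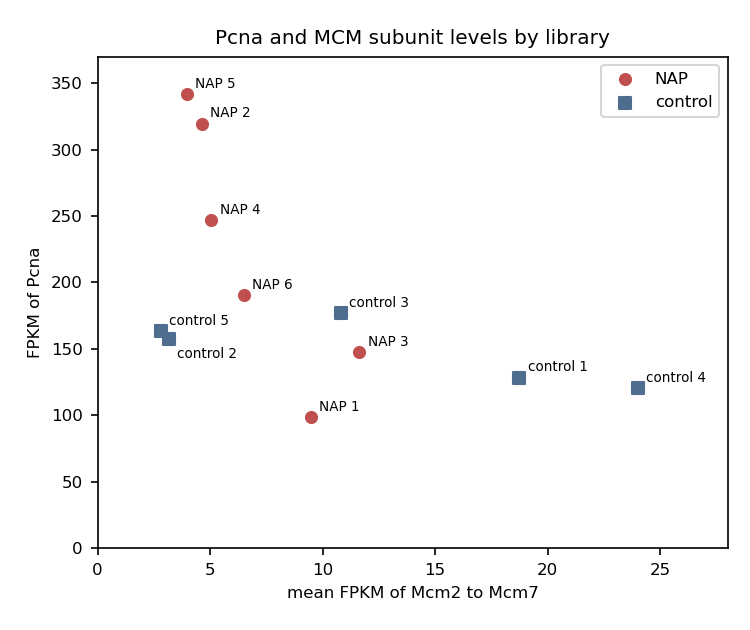
FPKM of Pcna (vertical axis) against the mean FPKM of Mcm2 to Mcm7 (horizontal axis) in each NAP library (red circles) and each control (blue squares), both axes linear from 0. NAP 5, 2 and 4 have the highest Pcna levels, from 247 to 342 FPKM, at MCM means of 3.98 to 5.05 FPKM, while controls 1 and 4 have the highest MCM means with Pcna at 128 and 121 FPKM.

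Set against the helicase on the FPKM scale, Pcna exceeded the MCM mean 10.4-fold in NAP 1, 68.8-fold in NAP 2, 12.7-fold in NAP 3, 48.9-fold in NAP 4, 85.9-fold in NAP 5 and 29.2-fold in NAP 6. In controls 1 to 5 the ratio was 6.84, 49.4, 16.4, 5.02 and 58.3. The ratio was therefore high in some libraries of either group. In controls 2 and 5 this went with a low MCM level and an ordinary Pcna level. NAP 2, 4 and 5 had a Pcna level above every control. They also had the lowest MCM means of the NAP group, at 4.64, 5.05 and 3.98 FPKM. Pcna was also the most abundant member, with a median of 219 FPKM in NAP libraries and 157 FPKM in controls. Slbp came next, at 17.8 FPKM in NAP libraries and 21.5 FPKM in controls, and Ccne2 was the lowest, at 0.750 FPKM in NAP libraries and 0.534 FPKM in controls. The processed copy Pcna-ps2 had 489 counts over all libraries against 48693 for Pcna; no source used here says how reads that match both were counted.

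Okazaki fragment and base repair genes were negative in all 3 cases and none was called. Lig1, the ligase that seals Okazaki fragments, had 15.6 CPM in the lowest, 20.8 at the median and 41.7 in the highest NAP library, against 64.6, 20.1, 40.1, 71.2 and 16.0 CPM in controls 1 to 5 (log2 fold change −0.85 ± 0.39, adjusted p = 0.214, edgeR). For Ung, which removes uracil from new DNA, the lowest, median and highest NAP values were 2.57, 5.28 and 11.7 CPM, against 17.9, 6.15, 11.2, 17.6 and 5.01 CPM in controls (log2 fold change −0.98 ± 0.44, adjusted p = 0.204, edgeR). Both had controls 1 and 4 above every NAP library and the other 3 controls within the NAP range. Fen1, the flap endonuclease that trims the fragments before ligation, spanned 7.35 to 30.6 CPM in NAP libraries and 11.8 to 45.4 CPM in controls. All 3 overlap a gene on the opposite strand (Zswim9 for Lig1, Alkbh2 for Ung and Tmem258 for Fen1).

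Nucleotide supply genes followed the same order among controls, with controls 1 and 4 highest and controls 2 and 5 lowest. All 4 were negative with 0 called. Tk1, the thymidine kinase of the salvage pathway, had 7.79 CPM in the lowest, 14.6 at the median and 28.8 in the highest NAP library, against 39.7, 21.2, 34.4, 40.8 and 18.8 CPM in controls. Controls 1, 3 and 4 exceeded every NAP library, and NAP 2, 4, 5 and 6 lay below every control. The log2 fold change of Tk1 was −0.88 ± 0.34 (adjusted p = 0.140, edgeR). Its span overlaps that of Afmid on the opposite strand. Rrm2, the S phase subunit of ribonucleotide reductase, had 12.3, 21.0 and 31.3 CPM as its lowest, median and highest NAP values, against 58.7, 9.99, 34.5, 66.2 and 10.2 CPM in controls (log2 fold change −0.74 ± 0.47, adjusted p = 0.364, edgeR). Here controls 2 and 5 were below every NAP library, unlike for Tk1. Rrm1, the large subunit of the same enzyme, spanned 37.0 to 65.3 CPM in NAP libraries and 27.9 to 118 CPM in controls, and Tyms, thymidylate synthase, 5.59 to 26.5 CPM in NAP libraries and 14 to 34.0 CPM in controls. For Tk1 the SD of log2 CPM was 0.71 among NAP libraries and 0.52 among controls, and for Tyms it was 0.79 among NAP libraries and 0.51 among controls.

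Chromatin and histone supply genes split by spread. Chaf1a, a subunit of the chaperone that places new histones behind the fork, had 3.64 CPM in the lowest, 6.22 at the median and 16.7 in the highest NAP library, against 27.3, 3.14, 13.6, 34.9 and 3.22 CPM in controls (log2 fold change −0.98 ± 0.62, adjusted p = 0.357, edgeR). Uhrf1, which takes part in passing DNA methylation on to the new strand, had 11.2, 21.6 and 39.0 CPM as its lowest, median and highest NAP values, against 61.2, 6.29, 39.4, 79.7 and 6.80 CPM in controls (log2 fold change −0.71 ± 0.60, adjusted p = 0.498, edgeR). In both, controls 1 and 4 were above and controls 2 and 5 below every NAP library, and Chaf1a overlaps Ubxn6 on the opposite strand. Slbp, which binds the stem-loop of histone mRNAs, varied far less, from 25.5 to 42.4 CPM in NAP libraries and from 21.6 to 50.4 CPM in controls.

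At the G1 to S switch, E2f1 and Ccne1 had 2 of the 3 most negative estimates of the set, while Ccne2 was positive. Ccne1 encodes cyclin E1 (chr7:37797409-37806915, GRCm39), and it had 1.70 CPM in the lowest, 2.95 at the median and 7.32 in the highest NAP library, against 14.9, 4.96, 6.10, 16.6 and 5.80 CPM in controls 1 to 5. NAP 2, 4, 5 and 6 were below every control, while NAP 1 and 3 were not, and the log2 fold change was −1.26 ± 0.48 (adjusted p = 0.136, edgeR). For E2f1, the activator that drives many genes of this set, the lowest, median and highest NAP values were 2.64, 3.10 and 8.02 CPM, against 15.5, 2.44, 9.35, 13.8 and 2.08 CPM in controls (log2 fold change −1.03 ± 0.53, adjusted p = 0.258, edgeR). E2f1 thus had 3 controls above and 2 controls below all NAP libraries. Ccne2, cyclin E2, had 1.79, 4.19, 2.55, 2.49, 4.59 and 1.98 CPM in NAP 1 to NAP 6, against 2.81, 1.33, 1.82, 5.08 and 0.859 CPM in controls (log2 fold change 0.29 ± 0.45, adjusted p = 0.730, edgeR). The highest NAP values of Ccne2 were in NAP 5 and NAP 2, the libraries with the highest Pcna and the lowest Ccne1. The genomic span of Ccne2 overlaps that of Ints8 on the opposite strand by 5622 bases, introns included, and how many counted reads fall there was not measured.

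**Figure D4:**
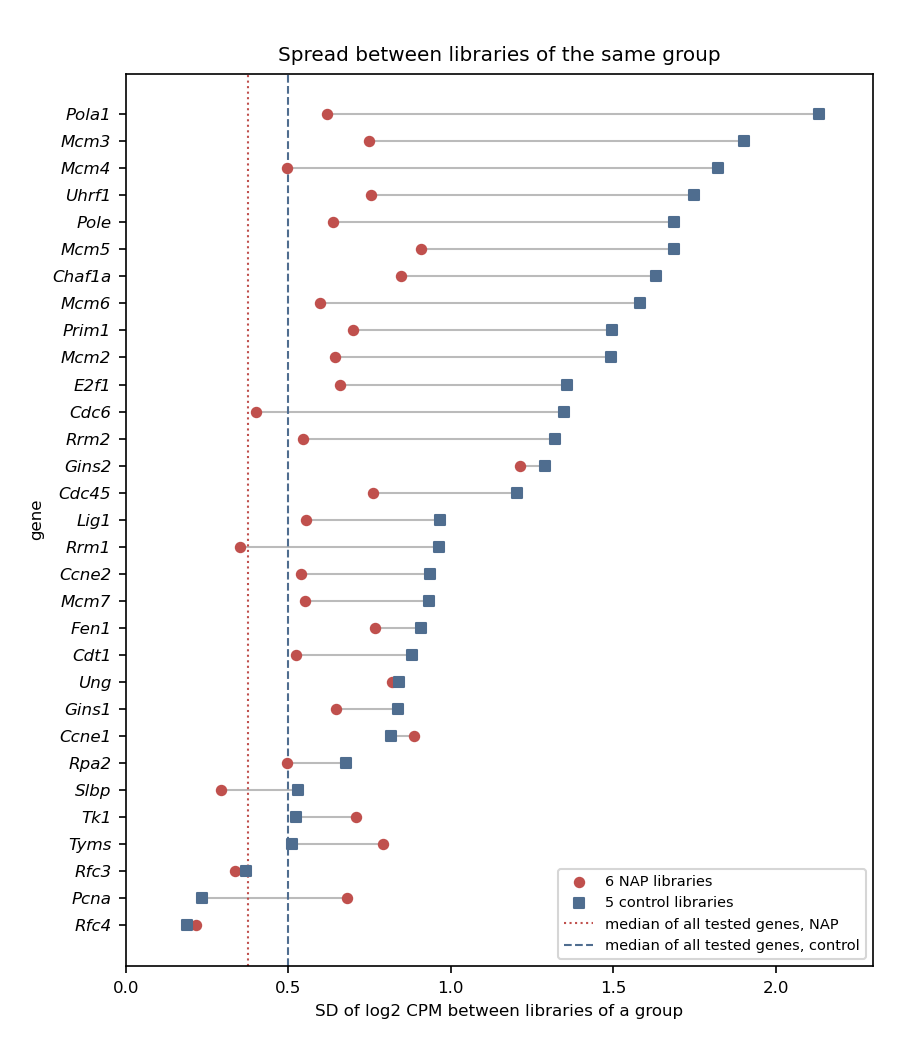
SD of log2 CPM between the 6 NAP libraries (red circles) and between the 5 controls (blue squares) for each of the 31 genes, ordered by the control SD. The dotted and dashed lines mark the medians over all tested genes, 0.38 in NAP libraries and 0.50 in controls. The control SD exceeds the NAP SD for 26 genes, and the gap is widest for Pola1.

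The spread over controls was a feature of most members. Their median SD of log2 CPM was 0.64 among NAP libraries and 0.97 among controls, while over all tested genes it was 0.38 among NAP libraries and 0.50 among controls. An SD above 1 was seen among NAP libraries in 1 member, against 6.83% of all tested genes, and among controls in 15 members (48.4%), against 15.8% of all tested genes. The control SD exceeded the NAP SD for 26 of 31 members (83.9%), against 63.3% of all tested genes. A range of over 10-fold was found for 1 member among NAP libraries and for 9 among controls, and this was not counted over all tested genes. By role, the median control SD was largest for chromatin and histone supply (1.63), origin licensing (1.54) and helicase activation (1.20), and smallest for nucleotide supply (0.74) and for polymerases with clamp and clamp loader (0.68). The 9 members with such a control range were Mcm3, Mcm4, Mcm5, Mcm6, Pola1, Prim1, Pole, Chaf1a and Uhrf1.

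Other lists followed the same order of libraries. To score a list in a library, each gene's log2 CPM was centred on its average across the 11 libraries and the listed genes were then averaged. For the 31 members it was 0.20, −0.61, 0.55, −0.35, −0.84 and −0.13 in NAP 1 to NAP 6, against 1.11, −0.85, 0.52, 1.37 and −0.96 in controls 1 to 5. For 30 genes of G2 phase and mitosis, which include Mki67, Top2a and Ccnb1, it was 0.07, −0.63, 0.58, −0.18, −0.69 and 0.51 in NAP libraries, against 1.06, −1.29, 0.66, 1.42 and −1.51 in controls. S phase and mitotic scores thus put the controls in the same order, and both put NAP 3 above and NAP 5 below the other NAP libraries, whereas NAP 6 stood higher on the mitotic score. Of those 30 mitotic genes, 29 were negative and 0 were called by edgeR, with a median log2 fold change of −0.50 and a median control SD of 1.40.

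**Figure D5:**
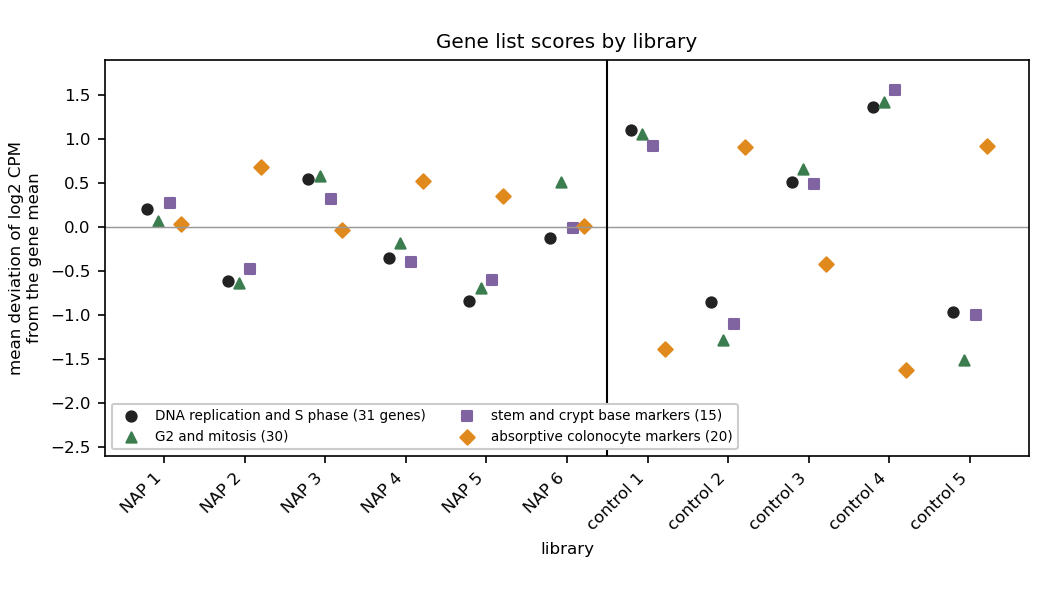
List scores by library (average log2 CPM of the listed genes, each centred over the 11 libraries), for the 31 replication genes (black circles), 30 genes of G2 phase and mitosis (green triangles), 15 stem and crypt base markers (purple squares) and 20 absorptive colonocyte markers (orange diamonds). NAP libraries are on the left and controls on the right. Controls 1 and 4 are highest for the first 3 lists and lowest for the colonocyte markers, and controls 2 and 5 show the reverse.

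Across controls, stem and crypt base markers moved with the members, and absorptive colonocyte markers moved in the opposite direction. Stem and crypt base markers (15 tested, 13 negative, 0 called, median log2 fold change −0.77) summed to 1213 to 1672 CPM in NAP libraries and to 922 to 2963 CPM in controls, with scores of 0.93, −1.10, 0.49, 1.56 and −0.99 in controls 1 to 5. Absorptive colonocyte markers (20 tested, 10 negative) included 2 called higher by edgeR, against 2.12% of all tested genes called. At an unadjusted p below 0.05, 6 of them were higher and 0 lower, against 10.8% of all tested genes that were higher, and 3 had every NAP library above every control, against 2.14% of all tested genes. They summed to 14820 to 22170 CPM in NAP libraries and to 5717 to 28960 CPM in controls, with scores of −1.38, 0.91, −0.41, −1.62 and 0.93 in the same controls. The controls with high replication genes were thus those with high crypt base and low colonocyte markers, and their part in the result was not tested. Goblet cell markers summed to 2238 to 5069 CPM in NAP libraries and 3691 to 7582 CPM in controls, enteroendocrine markers to 252 to 546 CPM in NAP libraries and 203 to 591 CPM in controls, and tuft cell markers to 1.76 to 5.51 CPM in NAP libraries and 1.73 to 4.89 CPM in controls. Markers of cells outside the colon epithelium were low. Fibroblast markers summed to 7.88 to 52.8 CPM in NAP libraries and 2.52 to 32.8 CPM in controls. Of these 9 markers, 3 were below 1 CPM in every library. The fibroblast sum was 4.10, 32.8, 12.8, 2.52 and 31.65 CPM in controls 1 to 5, so it was highest in controls 2 and 5. Among NAP libraries it was highest in NAP 5. Immune cell markers summed to 0.614 to 10.6 CPM in NAP libraries and 1.25 to 6.83 CPM in controls, with 7 of 9 below 1 CPM everywhere and Cd3d at 0 in all 11, and endothelial markers to 2.87 to 4.95 CPM in NAP libraries and 3.63 to 6.32 CPM in controls. Squamous epithelium markers reached 78.7 to 189 CPM in NAP libraries and 64.3 to 153 CPM in controls, with 5 of 10 below 1 CPM everywhere and Sprr3 at 0 in all.

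Beyond the members, 115 further genes of the same processes could be tested. Of these, 91 were negative, against 55.3% of all tested genes. By edgeR's quasi-likelihood test 3 were called lower and 1 was called higher, against 2.12% of all tested genes called in either direction. For the 3 genes called lower (Pola2, Pold2 and Rnaseh2c), controls 2 and 5 lay with the other controls. Pola2, the regulatory subunit that binds Pola1, had 18.1 CPM in the lowest, 22.0 at the median and 24.6 in the highest NAP library, against 53.5, 38.0, 32.9, 34.4 and 37.9 CPM in controls. Every NAP library was below every control, and the log2 fold change was −0.88 ± 0.16 (adjusted p = 0.0343, edgeR). Within 1 enzyme, Pola2 had a control SD of 0.27 and Pola1 one of 2.13. Pola1 was picked for its large control SD and Pola2 for its call, which a small spread favours. The contrast follows in part from that choice.

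Rnaseh2c, a subunit of the enzyme that removes ribonucleotides from DNA, fell to 9.61 CPM in the lowest, 13.3 at the median and 21.9 in the highest NAP library, against 32.8, 43.9, 30.6, 26.7 and 40.7 CPM in controls (log2 fold change −1.28 ± 0.24, adjusted p = 0.0343, edgeR). Pold2, a subunit of the lagging-strand polymerase delta, had 18.6, 20.8 and 31.3 CPM as its lowest, median and highest NAP values, against 37.2, 35.2, 37.4, 41.5 and 32.7 CPM in controls (log2 fold change −0.70 ± 0.16, adjusted p = 0.0476, edgeR). Neither gene had any overlap between the groups. Rrm2b, the ribonucleotide reductase subunit that works outside S phase and is induced by p53, rose to 9.65 CPM in the lowest, 13.5 at the median and 20.0 in the highest NAP library, against 5.30, 4.47, 10.0, 6.73 and 5.58 CPM in controls (log2 fold change 1.12 ± 0.27, adjusted p = 0.0490, edgeR). Only control 3 reached into the NAP range. Its S phase counterpart Rrm2 had an estimate of the opposite sign, and the difference between them was not tested. All 4 calls were lost in fits with the replicate number as a block, with the GC or length trend removed, or without NAP 2, 4 or 5 or control 1, 2 or 5, where edgeR called 0 genes in all. Without NAP 6 only the call of Pola2 remained, without control 3 that of Pold2 was lost, and without control 4 those of Pold2 and Rrm2b were.

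Over all tested genes 55.3% were negative and the median log2 fold change was −0.07. By list, origin recognition, licensing and firing had 12 of 18 negative (median log2 fold change −0.39). Nearest to the threshold were Orc5 at 0.49 (adjusted p = 0.147, edgeR) and Orc6 at −0.50 (adjusted p = 0.165, edgeR). Polymerases, clamp loaders and single-strand binding had 16 of 17 negative (median −0.52), and fork protection and checkpoint 15 of 17 (median −0.50), where Rnaseh2a stood at −0.78 (adjusted p = 0.0851, edgeR). Nucleotide supply had 14 of 17 negative (median −0.43). Its Samhd1, which degrades deoxynucleotides, was below every control in all 6 NAP libraries without passing (log2 fold change −0.51, adjusted p = 0.0757, edgeR). Chromatin duplication had 13 of 15 negative (median −0.29), with the histone mRNA processing genes Lsm11 at −0.54 (adjusted p = 0.159, edgeR) and Lsm10 at −0.62 (adjusted p = 0.203). G1 to S control had 21 of 31 negative (median −0.26). Within it the Cdk inhibitor genes gave estimates on opposite sides, −1.35 for Cdkn1c (adjusted p = 0.0518, edgeR) and 0.94 for Cdkn1b (adjusted p = 0.0788, edgeR). Cdkn1b had 93.6 CPM in the lowest, 173 at the median and 257 in the highest NAP library, against 79.99, 87.6, 117, 63.9 and 90.8 CPM in controls, so its groups overlapped through NAP 1 and NAP 3.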

How the data were processed

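RNA of 11 libraries was analysed, 6 from NAP organoids and 5 from controls, grouped and numbered by their titles. The authors deposited whole-number counts per gene. Trimmomatic 0.39, HISAT2 2.2.1, featureCounts of Subread 2.0.8 and GRCm39 are listed in the submitters' processing notes. The deposited FPKM values are proportional to the count over gene length, and the library's scale was 0.871 to 1.28 of its count total. No source used here gives the strand setting, the annotation release or the handling of multiply matching reads, which leaves overlapping genes and pseudogene copies uncertain.

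Genes were kept with filterByExpr (14840 tested, all 31 members among them; 13060 of 47131 were 0 everywhere), scaled with TMM and tested, NAP over control and without covariates, with the robust quasi-likelihood test of edgeR 4.0.16 in R 4.3.3, with Benjamini-Hochberg adjustment over all tested genes and a threshold of 0.05. The SE is the log2 fold change over the square root of the statistic. SDs of log2 CPM used a prior count of 2. A count of 0 allows 0.137 to 0.181 CPM (3 counts over the total), for counting error only. No 2 libraries were alike within counting noise (smallest chi-square per degree of freedom 7.68). The test was also tried on simulated counts, with each gene drawn independently of the others.

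Members, lists and named genes were chosen with earlier results of these data known. All 31 members are named. Values in each control are given for the 2 members with the smallest p per role and for those with positive estimates. They are also given for the members with the largest and smallest control SD. Values in each NAP library are given for the members with positive estimates. The rest of these members have the lowest, median and highest NAP value. Up to 2 genes with the smallest p are named per pathway list. Alternatives were other scalings and filters, DESeq2 1.42.0, limma 3.58.1, a replicate block, trends of transcript GC (GENCODE M21) or length removed, and libraries left out. For the pathway genes, the trend, mitochondrial and left-out fits were added after seeing the data. Of the listed colon epithelium markers, 8 were used, and another is not reported here.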

Additional observations from a re-analysis of the deposited data

How the results depend on the processing

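No member was called by edgeR in the fit reported above or in the alternatives other than the removal of controls 2 and 5 (11 called); DESeq2 called 1. At an unadjusted p below 0.05, in either direction, the reported fit held 5 members, against 3495 of 14840 tested genes. With 1 library left out it was 1 to 13 members, against 2614 to 3792 of all tested genes. Over 837 alternative values of single members, 803 kept direction and side of the threshold, 12 newly passed and 22 changed sign. The members' median log2 fold change was −0.93 with no scaling beyond the count total, −0.58 with the GC or the length trend removed and −0.39 on log2(FPKM + 1), and −0.96 (without control 5) to −0.38 (without control 4) with 1 library left out. With controls 1 and 4 left out the median was 0.19 with 13 negative members, and the log2 fold change was positive for Cdc6 (0.39), Mcm2 (0.20), Mcm3 (0.43), Mcm4 (0.62), Mcm5 (0.39), Mcm6 (0.52), Cdc45 (0.095), Gins2 (0.24), Pola1 (0.50), Prim1 (0.48), Pole (0.46), Rrm1 (0.19), Rrm2 (0.26), Chaf1a (0.34), Uhrf1 (0.45) and Slbp (0.18). Pola1 was also positive with voom (0.017) and log2(FPKM + 0.1) (0.077), and Rfc4 (0.18) and Slbp (0.11) with the length trend removed. The log2 fold change of Slbp ran from −0.26 to 0.000714 with 1 library left out, and Ccne2 was −0.12 with controls 2 and 5 left out. The cause of these sign changes was not tested.

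Of other pathway genes, 4 of 115 were called in the reported fit, against 315 of 14840 tested genes. Upper quartile scaling called 2 (265 genes in all), no scaling 0 (41 in all) and no filter 1 (89 of 34071). DESeq2 called 9, against 11.3% of all tested genes. An adjusted p of 0.1 gave 10, against 1480 of 14840. With the GC trend or the length trend removed, 0 genes were called in all. With controls 2 and 5 left out 16 pathway genes were called, against 5.32% of all tested genes. With 1 library left out it was 0 to 7, against 0 to 814 genes in all. The pathway count was 0 without NAP 2, 4 or 5 or control 1, 2 or 5, where edgeR called 0 genes in all. The members' median control SD was 0.92 to 1.11 with a prior count of 0.5, DESeq2's size factors, log2(FPKM + 0.1) or 1 control left out; it was not computed with 2 controls left out.

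Whether the replicate numbers pair the samples was not settled. After removal of the group means, same-numbered libraries correlated at 0.42, 0.34, −0.07, −0.30 and 0.30. The NAP library closest to a control had the same number for controls 1 and 2, but not for controls 3, 4 and 5. Sets of genes moved together across libraries, so these values cannot decide the matter. With the replicate block edgeR called 0 genes (2903 at an unadjusted p below 0.05), 0 other pathway genes and 0 members, with a members' median of −0.47 and 29 negative. GC content tracked the deviation of genes with a rank correlation of −0.54 to 0.12 in NAP libraries and 0.02 to 0.36 in controls; members had a median GC of 49.3%, against 49.8% over all tested genes. Depth limits the scarce members, such as Gins1 and Ccne2, most.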
